A study of Mus musculus with 2 samples.

Results

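The glucocorticoid receptor gene Nr3c1 and 5 genes that the receptor is known to induce, Tsc22d3, Ddit4, Fkbp5, Sgk1 and Klf9, were followed in microglia of amyloid-depositing mice. These 6 of the 32285 genes in the count table were chosen by name, with earlier results of these data known. Each was described by library, by the sex of the cell and by microglial state. Counts of the 6 beside the share of all genes are therefore descriptions and not support. Mice of the genotype APPswe/PS1.delta.E9 (PSAPP), which carry mutant human APP and presenilin 1 transgenes, were given vehicle (VEH) or the orexin receptor antagonist lemborexant (LEM, 30 mg/kg) by daily oral gavage for 30 days, from 9 to 10 months of age. Live CD45lo CD11b+ DAPI- cells of the cortex and hippocampus of 1 hemisphere were sorted, 5 mice were pooled per treatment, and each pool gave 1 library made with a 10x 5′ kit. The deposited table holds 18374 VEH cells and 24392 LEM cells, with medians of 5971 and 6034 counts per cell. Both libraries carry the transgenes, so neither is a control without amyloid, and with 1 library per treatment no difference between VEH and LEM could be tested against a spread between mice. All intervals given here are 95% intervals of counting error only.

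Glucocorticoids, corticosterone in the mouse, enter cells and bind the receptor, which leaves its Hsp90 chaperone complex, moves to the nucleus and binds palindromic DNA elements or tethers to other transcription factors. Microglia express the receptor strongly, and glucocorticoids restrain their inflammatory genes. The 5 target genes have separate jobs: Tsc22d3 (GILZ) binds and restrains NF-kB and AP-1, Ddit4 (REDD1) inhibits mTORC1, Fkbp5 (FKBP51) is a co-chaperone that lowers the affinity of the receptor for its hormone, Sgk1 is a kinase of ion channels and FoxO factors, and Klf9 is a transcription factor of hormone and clock responses. Each of them also has inputs other than the receptor, such as energy stress for Ddit4, the serum and stress response for Sgk1 and the clock for Klf9.

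RefSeq promoter windows, each of 250 bases before and 50 bases after a start site, were at hand for 5 of the 6 genes. They were searched on both strands for the palindrome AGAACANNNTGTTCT that the receptor binds, for its shorter core GNACANNNTGTNC, which lies inside it, and for the FoxO element GTAAACA.

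Among all 32851 windows, 3 held the palindrome (0.00913%), and 1 of those 3 was a Sgk1 window. The Sgk1 window is shown because it is the only one of the 12 windows of these genes with a receptor element. Its build is GRCm38.p6, its position is chr10:21993640-21993939 on the plus strand, the capitals mark the palindrome, and the palindrome starts 189 bases before the start site.
Sgk1: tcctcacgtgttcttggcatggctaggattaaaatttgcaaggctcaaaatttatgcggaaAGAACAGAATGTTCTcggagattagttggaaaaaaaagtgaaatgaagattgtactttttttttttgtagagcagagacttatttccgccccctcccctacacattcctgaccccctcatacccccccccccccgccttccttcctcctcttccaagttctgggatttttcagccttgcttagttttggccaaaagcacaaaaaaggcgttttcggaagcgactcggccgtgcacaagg

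The shorter core was in 156 windows, of 145 of the 27025 genes (0.537%). Of the 45 genes in a list of glucocorticoid-induced genes, 38 had a window and 5 held the core. Their sites are shown with 8 bases on either side and the core in capitals, to let the spacers and flanks of known targets be compared with that of Sgk1, all in GRCm38.p6.
Fam107a, chr14:8309877-8309905, minus strand: ggtggcttGGACATGGTGTTCtgagtctc
Map3k6, chr4:133240629-133240657, plus strand: gaatagggGCACAGGCTGTTCcggaagtg
Mt1, chr8:94178987-94179015, plus strand: cactatagGGACATGATGTTCcacacgtc
Sgk1, chr10:21993694-21993722, plus strand: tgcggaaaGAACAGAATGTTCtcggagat
Txnip, chr3:96557777-96557805, plus strand: cgctaggaGCACACCGTGTCCacgcgccc

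None of the windows of Tsc22d3, Ddit4, Fkbp5 and Klf9 held the core, and 1 of them, the Klf9 window, held the FoxO letters, which were in 3.65% of all windows. Receptor elements of Tsc22d3, Fkbp5 and Ddit4 are known to lie farther from the start sites, outside windows of this length.

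In the GENCODE M21 annotation of GRCm38 (mm10), Nr3c1 lies on chromosome 18 from 39410545 to 39519421, minus strand, and Tsc22d3 on chromosome X from 140539528 to 140600659, minus strand. Chromosome 10 holds Sgk1 from 21882184 to 21999903 on the plus strand and Ddit4 from 59949669 to 59951834 on the minus strand. Fkbp5 spans chromosome 17 from 28399094 to 28517527 on the minus strand, over 4 other annotated genes, and Klf9 spans chromosome 19 from 23141226 to 23168134 on the plus strand.

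The cells carried the label of microglia. The 5 microglial markers summed here (Cx3cr1, P2ry12, Tmem119, Csf1r, C1qa) were all detected, with a summed level of 20764 counts per 1000000 counts (CPM) in VEH and 21033 CPM in LEM. Markers of astrocytes, neurons, endothelium, T cells, neutrophils and B cells summed to between 0 and 13.8 CPM per list and library, with 1 of 2 T cell markers at 0, and those of oligodendrocytes to 57.8 and 61.7 CPM. Ttr, the transcript that defines choroid plexus epithelium, differed between the libraries, at 403 CPM in VEH and 1227 CPM in LEM. By sex it was at 184 CPM in female and 326 CPM in male VEH cells, and at 244 CPM in female and 1306 CPM in male LEM cells. Cells were called female or male by counts of Xist or of Y-linked genes, which gave 5686 female and 9025 male VEH cells and 8409 female and 11223 male LEM cells, with medians between 6106 and 6156.5 counts per cell. Counts of both kinds were in 981 VEH and 1764 LEM droplets, and counts of neither kind in 2682 VEH and 2996 LEM cells. Both groups were left out of the values by sex.

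The receptor gene itself was slightly lower in LEM. Nr3c1 was at 189 CPM in VEH (187 to 192) and 172 CPM in LEM (170 to 174), a log2 ratio of LEM over VEH of -0.14 (-0.16 to -0.11). Female cells held 198 CPM in VEH and 175 CPM in LEM, and male cells 183 and 170 CPM, so LEM was below VEH in the cells of both sexes. Nr3c1 had a count in 61.0% (VEH) and 59.3% (LEM) of cells, and in 30.8% and 28.5% once each cell was thinned to 2000 counts. In droplets of choroid plexus the thinned share was 14.2% of 183 droplets.

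Among the targets, Tsc22d3 had the largest difference between the libraries. It was at 157 CPM in VEH (155 to 159) and 121 CPM in LEM (119 to 122), a log2 ratio of -0.38 (-0.41 to -0.35). In female cells its level was 116 CPM in VEH and 98.6 CPM in LEM, and in male cells 180 and 139 CPM. LEM was therefore lower in the cells of either sex, by a log2 ratio of -0.24 (-0.29 to -0.18) for females and -0.37 (-0.41 to -0.33) for males. Of the 11902 detected genes with all ratios, 2.16% had a lower LEM over VEH ratio than Tsc22d3. Its thinned share of cells was 23.7% in VEH and 19.2% in LEM, against 10.9% of choroid plexus droplets.

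Ddit4 was at 64.6 CPM in VEH (63.2 to 66.1) and 56.2 CPM in LEM (55.0 to 57.3), a log2 ratio of -0.20 (-0.25 to -0.16). The difference was smaller within a sex. Female cells held 32.3 and 31.6 CPM, with a ratio of -0.03 (-0.14 to 0.07), and male cells 85.1 and 76.4 CPM, with a ratio of -0.16 (-0.21 to -0.10). Male cells made up 61.3% of the sexed cells in VEH and 57.2% in LEM, and with both sexes weighted equally the ratio was -0.12.

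Sgk1, the gene with the receptor palindrome shown above, was at 913 CPM in VEH (908 to 919) and 833 CPM in LEM (829 to 838), a log2 ratio of -0.13 (-0.14 to -0.12). Female cells held 912 CPM in VEH and 844 CPM in LEM, and male cells 921 and 833 CPM. The direction was the same in both sexes, and within the homeostatic gate described below the ratio was -0.08.

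Fkbp5 and Klf9 showed no common direction. Fkbp5 was at 106 CPM in VEH (105 to 108) and 104 CPM in LEM (102 to 106), with a ratio of -0.11 (-0.18 to -0.04) among female cells and of 0.03 (-0.02 to 0.07) among male cells. Klf9 was near the limit of detection, with 382 counts in VEH and 585 in LEM, or 3.29 CPM (2.97 to 3.63) and 3.64 CPM (3.35 to 3.95). Its ratio of 0.15 had an interval that held 0 (-0.04 to 0.34). Female cells had 3.04 CPM in VEH and 2.75 CPM in LEM, and male cells 3.27 and 4.34 CPM, so that the male LEM cells alone stood above the other pools.

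**Figure D1:**
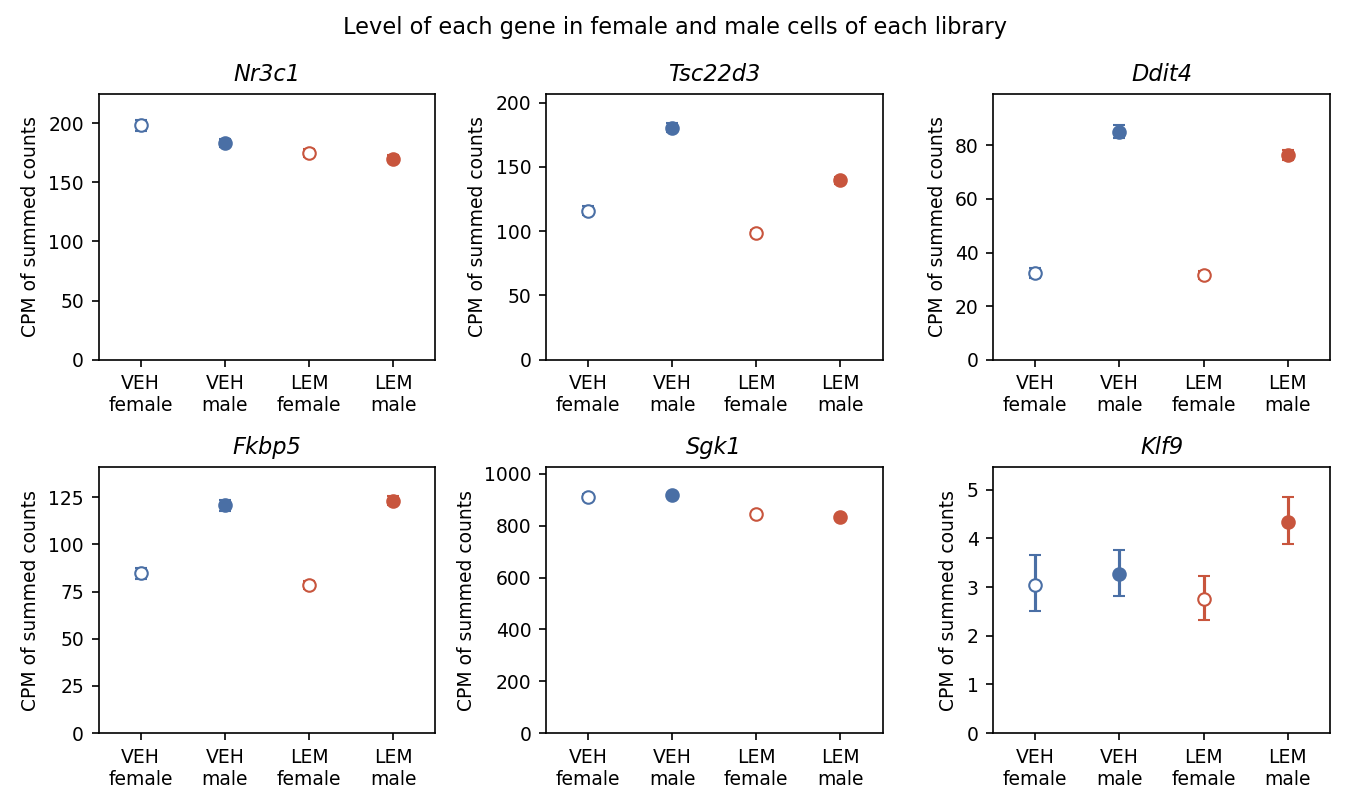
Level of each gene (CPM of summed counts, y axis from 0) in female (open) and male (filled) cells of the VEH (blue) and LEM (red) libraries, with 95% Poisson intervals that are often smaller than the points. Ddit4 sits at 32.3 and 31.6 CPM in female cells and at 85.1 and 76.4 CPM in male cells, while Sgk1 and Nr3c1 are close to level between the sexes.

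Counted together, 4 of the 6 genes were lower in LEM by a log2 ratio of over 0.1, against 14.2% of the 11904 genes counted as detected (found in 1% or more of the cells of a library), and 1 of 6 (Klf9) was higher by over 0.1, against 21% of detected genes. No member passed 0.5 in either direction, where 1.62% of detected genes were higher and 1.24% lower. The median of the 6 was -0.14, beside 0.01 over all detected genes. Genes of the response to tissue dissociation and heat shock, which can be raised while cells are prepared, moved in the same direction. Of these, 10 of 14 were lower in LEM by over 0.1 and none higher by as much, with a median of -0.19. Among them were Jun at -0.21, Fos at -0.27, Fosb at -0.61, Hspa1a at -0.83 and Hspa1b at -1.11. The paper states that its cell suspensions were prepared cold, and it lists Jun among homeostatic genes with reduced expression. The part of the dissociation and heat shock genes in the lower Tsc22d3 and Sgk1 levels was not tested.

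**Figure D2:**
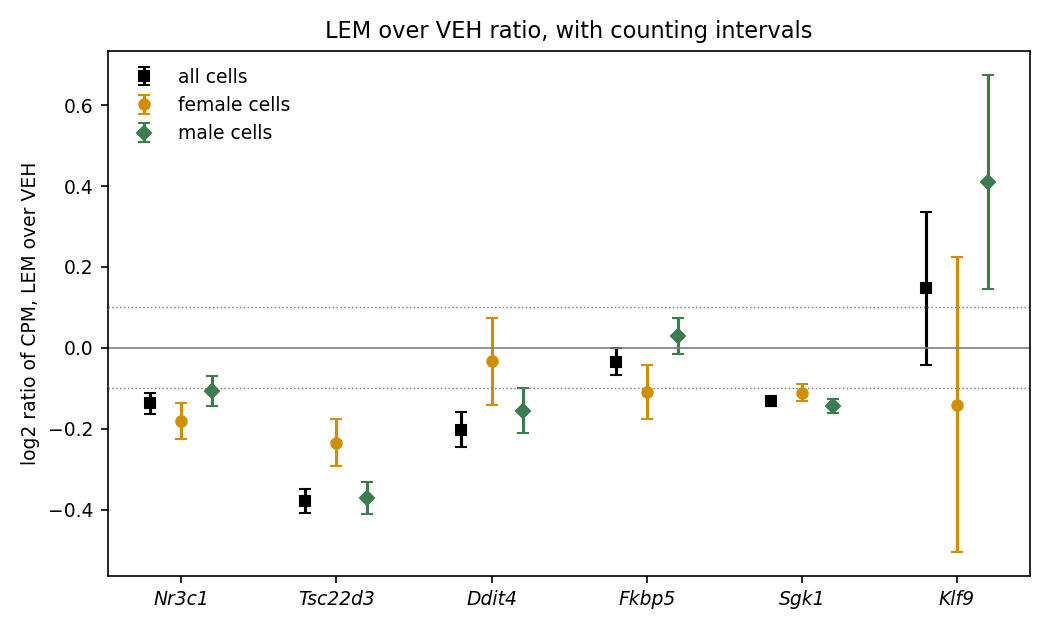
Log2 ratio of LEM over VEH (y axis) for each gene in all (black), female (orange) and male (green) cells, with 95% counting intervals, a solid line at 0 and dotted lines at 0.1 and -0.1. Tsc22d3 lies lowest, between -0.38 and -0.24, and the female and male values of Klf9 lie on opposite sides of 0, at -0.14 and 0.41.

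A larger difference than that between the libraries was seen between the sexes, for 3 of the 5 targets. Ddit4 was 2.63-fold higher in male than in female VEH cells and 2.42-fold higher in LEM, log2 ratios of 1.40 (1.30 to 1.49) and 1.27 (1.19 to 1.35). Tsc22d3, which is X-linked, was higher in male cells by 0.64 (0.59 to 0.69) in VEH and 0.50 (0.45 to 0.55) in LEM. Fkbp5 was higher by 0.51 (0.45 to 0.57) and 0.65 (0.60 to 0.70). These 3 targets were therefore higher in male cells of both libraries, which hold different mice.

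The receptor gene and Sgk1 did not share that pattern. The male over female log2 ratio of Nr3c1 was -0.11 in VEH and -0.04 in LEM, and that of Sgk1 was 0.01 (-0.01 to 0.03) and -0.02 (-0.04 to -0.0022). Klf9 was at 0.11 (-0.24 to 0.46) in VEH and 0.66 (0.37 to 0.94) in LEM. Past a ratio of 0.5, 3 of 6 genes were higher in male VEH cells, against 2.25% of detected genes, and 4 of 6 in male LEM cells, against 1.91%, with Tsc22d3 at the threshold in LEM. In both libraries at once 47 of 11902 genes were higher in male cells by over 0.5 (0.395%), and Tsc22d3, Ddit4 and Fkbp5 were among them. Ddit4 had a higher male over female ratio than 99.7% of genes in VEH and 99.8% in LEM.

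**Figure D3:**
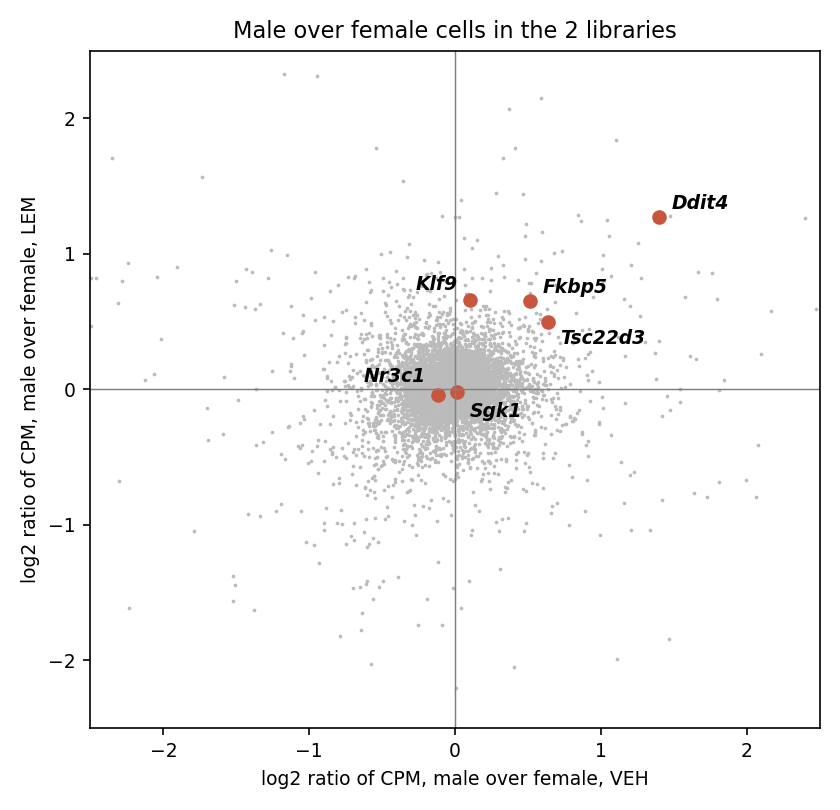
Male over female log2 ratio of CPM in VEH (x axis) and in LEM (y axis) for 11902 detected genes (grey), with the 6 genes in red; 24 genes lie outside the axes, which end at 2.5. Ddit4, Tsc22d3 and Fkbp5 lie in the upper right, Nr3c1 and Sgk1 near the centre, and Klf9 is raised on the LEM axis only.

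The sex difference in Ddit4, Tsc22d3 and Fkbp5 was seen in the 3 gates named homeostatic, immediate early and interferon (defined below), where all intervals lay above 0 in both libraries, and less evenly elsewhere. In the homeostatic gate Ddit4 was higher in male cells by 1.42 (1.27 to 1.57) in VEH and 1.21 (1.09 to 1.34) in LEM, Tsc22d3 by 0.66 and 0.58, and Fkbp5 by 0.47 and 0.64. In the gate of disease-associated microglia (DAM), with 141 female and 214 male VEH cells, Tsc22d3 was higher in male cells by 0.70 in VEH and 1.07 in LEM, Ddit4 by 0.56 (-0.10 to 1.24) and 0.80 (0.26 to 1.35), and Fkbp5 by 0.32 (-0.04 to 0.69) and 0.60 (0.28 to 0.92). Proliferating cells did not show it for Fkbp5, at 0.26 (-0.26 to 0.80) in VEH and -0.07 (-0.49 to 0.36) in LEM, nor for Tsc22d3 in VEH, at 0.03 (-0.55 to 0.63), beside 0.78 (0.19 to 1.40) in LEM. Ddit4 there was at 0.54 (-0.38 to 1.51) in VEH and 0.82 (0.05 to 1.66) in LEM. In VEH border-associated macrophages, 6 female and 7 male cells, Tsc22d3 was at -0.70, Ddit4 at -1.53 and Fkbp5 at -1.02. In LEM macrophages Tsc22d3 was at 0.26 and Fkbp5 at 1.02. All of these macrophage intervals held 0. In thinned cells, a count of at least 3 of the 5 targets was found in 2.94% of female and 8.01% of male VEH cells, and in 2.92% and 6.65% of LEM cells.

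The wider glucocorticoid-induced list held ratios in both directions. Without the 5 members, 28 of its 40 genes were detected, with a male over female median of 0.08 in VEH and 0.14 in LEM, beside -0.01 and 0.02 over all genes. Of those 28, 13 in VEH and 18 in LEM were higher in male cells by over 0.1, against 21.5% and 23.1% of detected genes, and 9 and 4 were lower by as much, against 27.2% and 18%. Higher by over 0.5 were 0 of 28 in VEH and 2 in LEM (Pik3ip1 at 0.82 and Zbtb16 at 0.58), against 2.25% and 1.91% of detected genes, and lower were 1 in VEH (Errfi1 at -0.63) and 0 in LEM, against 3.13% and 2.12%. Per1, a clock gene with a receptor element, was higher in male cells by 0.44 and 0.46. The 10 detected clock genes had male over female medians of opposite sign, -0.24 in VEH and 0.55 in LEM. The 14 genes of dissociation and heat shock had medians of 0.06 and 0.11, with 9 of 14 higher in male cells of either library, beside 5609 (VEH) and 6664 (LEM) of 11903 detected genes. Higher by over 0.5 were 2 of 14 in VEH (Hspa1b at 0.93 and Hspa1a at 0.92) and 0 in LEM, against 2.25% and 1.91%. Lower by as much were 0 in either library, against 3.13% and 2.12%. In LEM Hspa1b was at 0.27 and Hspa1a at -0.08. The part of the 14 genes in the sex difference was not tested. How many of the 5 mice in a pool were of each sex is not given in the sources used here, so sex and the individual mice cannot be told apart.

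Clock genes also differed between the sexes in LEM over VEH. Their median was -0.28 in female cells, with 8 of 10 lower by over 0.1, against 25.4% of detected genes, and 0.48 in male cells, with 6 of 10 higher by over 0.1, against 27.1%. The ratio of Klf9 was -0.14 (-0.50 to 0.22) in female cells, an interval that held 0, and 0.41 (0.15 to 0.68) in male cells. Dbp, an output gene of the clock, was at -0.24 and 0.92. According to the paper, mice were dosed at lights on and perfused within a set window of the light phase. The order of the mice within that window is not given, and the part of the clock in the Klf9 values was not tested.

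Microglial states were set apart by gates on raw marker counts that hold none of the 6 genes: DAM (450 VEH and 575 LEM cells), interferon (329 and 593), proliferating (141 and 208), immediate early (10002 and 12058), border-associated macrophage (BAM, 17 and 67), choroid plexus (49 and 143) and homeostatic (7304 and 10602). The immediate early gate, on genes such as Fos and Egr1, took 51.6% of all cells and therefore does not single out a rare state. Its markers were also passed by 654 of 1025 DAM, 587 of 922 interferon, 160 of 349 proliferating and 52 of 84 BAM cells. No homeostatic cell passed them, so ratios over the homeostatic gate do not hold immediate early status equal. DAM is a state of microglia at plaques, with raised lipid and lysosome genes and lowered homeostatic genes. States of a library share its mice and preparation and are not replicates.

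In the DAM gate the receptor gene and 4 of its targets were lower than in homeostatic cells of the same library. So were 8941 of 11891 detected genes in VEH and 9023 of 11901 in LEM. Ddit4 was at 23.7 CPM in DAM and 70.6 CPM in homeostatic cells of VEH and at 26.5 and 62.9 CPM in LEM, log2 ratios of -1.57 (-1.85 to -1.31) and -1.25 (-1.47 to -1.03). Tsc22d3 was at 59.5 and 133 CPM in VEH and 48.2 and 105 CPM in LEM, ratios of -1.16 and -1.12. The receptor gene Nr3c1 was at 123 and 191 CPM in VEH and 113 and 177 CPM in LEM, ratios of -0.64 in both.

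The co-chaperone gene Fkbp5 was at 66.0 against 108 CPM in VEH and 70.2 against 107 CPM in LEM, ratios of -0.71 and -0.61. The kinase gene Sgk1 was at 594 against 855 CPM and 585 against 811 CPM, ratios of -0.53 and -0.47. Klf9 had 23 counts in VEH and 24 in LEM DAM cells, and its ratios of 0.55 (-0.16 to 1.21) and 0.20 (-0.48 to 0.82) had intervals that held 0. The 5 other genes were thus lower in DAM in both libraries, and also in female and in male cells taken alone.

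This difference has to be read against that of all genes. The median ratio of all detected genes in DAM over homeostatic was -0.30 in VEH and -0.31 in LEM. Lower by over 0.5 were 5 of the 6 genes in VEH, against 29.5% of detected genes, and 4 of 6 in LEM, against 31.7%. Relative to the median, Ddit4 was at -1.27 in VEH and -0.93 in LEM, Tsc22d3 at -0.86 and -0.81, Fkbp5 at -0.41 and -0.30, Nr3c1 at -0.34 and -0.33, and Sgk1 at -0.23 and -0.16. Of all genes 1.83% had a lower ratio than Ddit4 in VEH and 3.64% in LEM, and for Tsc22d3 the shares were 4.73% and 4.90%. For Fkbp5 they were 15.8% and 22.1%, for Nr3c1 19.5% and 20.0%, and for Sgk1 27.2% and 34.5%, so these 3 lay closer to the bulk of genes.

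DAM cells were also deeper, with medians of 11248.5 counts in VEH and 11737 in LEM, against 5027.5 and 5209 in homeostatic cells. With homeostatic cells weighted to the same depth, a comparison chosen after seeing the data, Ddit4 was at -1.39 in VEH and -1.02 in LEM, Fkbp5 at -0.65 and -0.57, Nr3c1 at -0.59 and -0.49 and Sgk1 at -0.41 and -0.50. Tsc22d3 was at -0.51 in VEH and -0.85 in LEM, less than without the weighting. Over both libraries, the microglial markers summed to 15274 CPM in DAM and 21874 CPM in homeostatic cells. Astrocyte markers summed to 10.3 and 2.98 CPM, and neuron markers to 0.169 and 0.918 CPM.

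The other states gave each gene its own profile. Interferon-gate cells held less Ddit4, by -0.72 (-1.001 to -0.44) in VEH and -1.08 (-1.32 to -0.85) in LEM, and less Fkbp5, by -0.44 and -0.43, while their all-gene medians were -0.09 and -0.12. Their Nr3c1 ratios were 0.15 and 0.02, and those of Sgk1 were 0.03 and -0.09. Tsc22d3 in the interferon gate was at 0.25 (0.11 to 0.40) in VEH and -0.05 (-0.19 to 0.08) in LEM. With homeostatic cells weighted to the same depth it was at 0.59 and 0.14. Proliferating cells held less Tsc22d3, by -0.82 in VEH and -0.56 in LEM, and less Ddit4, by -1.10 (-1.54 to -0.69) and -0.38 (-0.67 to -0.10), but more Nr3c1, by 0.28 (0.12 to 0.44) and 0.19 (0.05 to 0.33). Their all-gene medians were 0.03 and 0.01. Of all genes 64.6% in VEH and 61.5% in LEM had a lower ratio than Nr3c1, so it lay within the bulk of genes. For Tsc22d3 the shares were 11.2% and 16.3%, and for Ddit4 6.56% and 24.5%. Weighted to equal depth, the Tsc22d3 ratios of proliferating cells were -0.25 and -0.29, and those of Ddit4 were -0.91 and -0.18.

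In the immediate early gate Tsc22d3 was higher by 0.42 (0.37 to 0.47) in VEH and 0.41 (0.36 to 0.45) in LEM, and Sgk1 by 0.19 and 0.12. Of all genes, 98.5% in VEH and 99.1% in LEM had a lower ratio than Tsc22d3 there. Ddit4 was at -0.10 and -0.16, and at -0.014 and -0.078 with the homeostatic cells weighted to equal depth, so that in VEH little of its difference was left. Fkbp5 was at 0.03 and -0.02, both intervals holding 0. BAM, of which there were 84 cells in all, held less Sgk1 than homeostatic microglia, by -1.05 (-1.45 to -0.68) in VEH and -1.08 (-1.28 to -0.89) in LEM. Their Tsc22d3 ratio was 0.09 (-0.62 to 0.72) in 17 VEH cells and 1.35 (1.11 to 1.58) in 67 LEM cells.

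**Figure D4:**
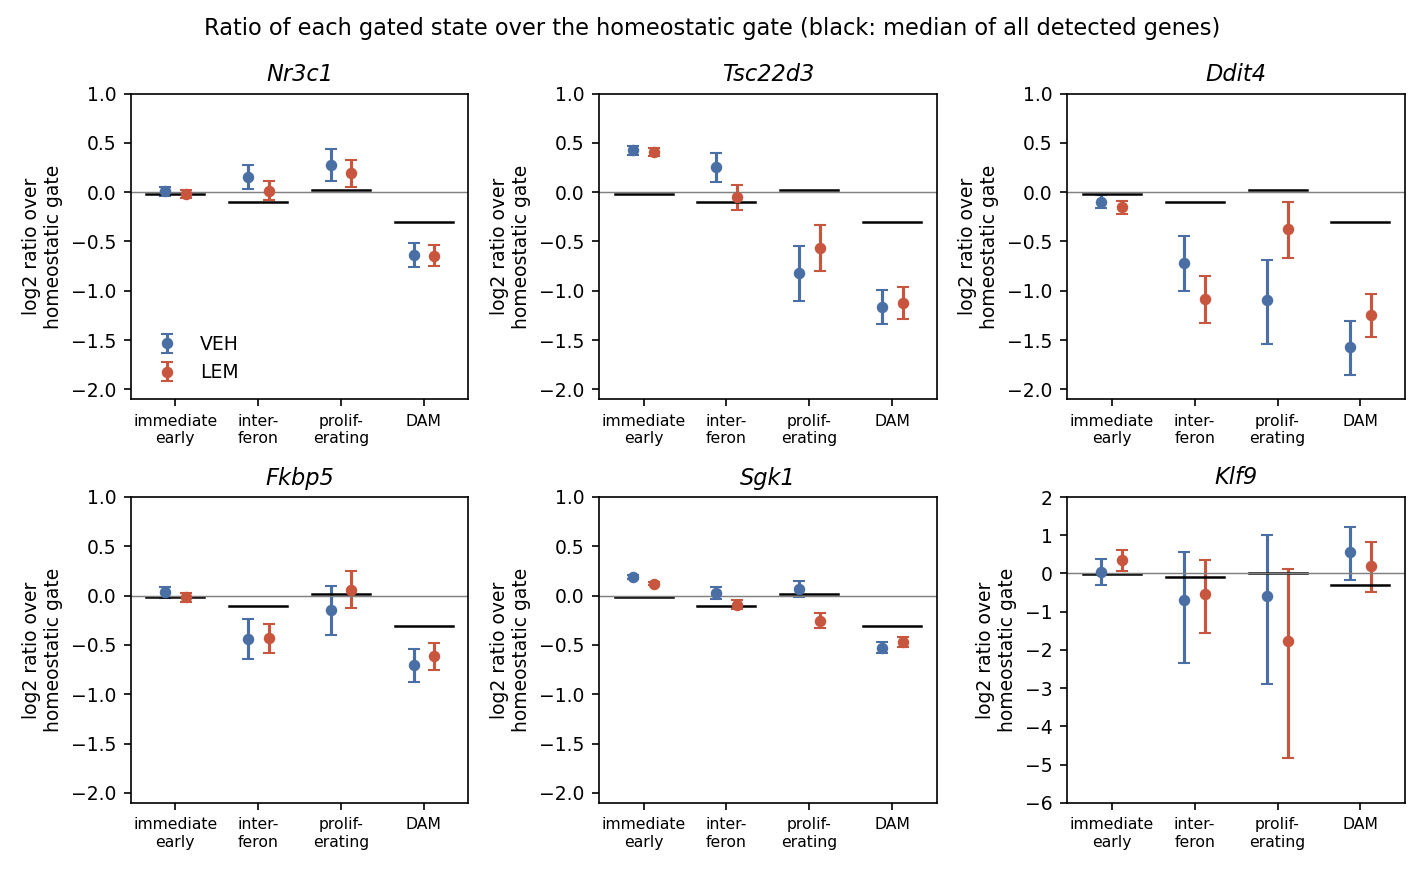
Log2 ratio of each gated state over the homeostatic gate (y axis, own scale for Klf9) in VEH (blue) and LEM (red), with 95% counting intervals; black bars give the median of all detected genes, averaged over both libraries. Ddit4 and Tsc22d3 lie farthest below the bar in DAM, and Tsc22d3 lies above it in the immediate early gate.

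Choroid plexus droplets differed from microglia most for Klf9. It was at 31.4 CPM in VEH (17.5 to 51.7) and 19.6 CPM in LEM (12.7 to 28.9), from 15 and 25 counts, ratios over homeostatic cells of 3.34 and 2.67. The other 5 genes were lower in those droplets, with ratios over both libraries between -0.96 (Nr3c1) and -0.45 (Sgk1), but the VEH intervals of Tsc22d3, Ddit4 and Sgk1 held 0. Leaving out choroid plexus and BAM droplets left the LEM over VEH ratio of Klf9 at 0.15. Of the Klf9 counts in male cells, 5 of 191 in VEH and 18 of 320 in LEM lay in choroid plexus droplets. In thinned homeostatic cells a Klf9 count was in 0.553% of VEH and 0.629% of LEM cells, which is too few for an order between states.

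Across cells the targets were spread differently. In thinned cells the variance over the mean of the counts was 2.14 in VEH and 2.01 in LEM for Sgk1, 1.45 and 1.42 for Tsc22d3, 1.41 and 1.56 for Ddit4, 1.23 and 1.15 for Fkbp5, and 1.14 and 1.13 for Nr3c1, where 1 is the value of counting alone. In homeostatic cells of like depth, Tsc22d3 and Ddit4 were found together 1.14 times (1.06 to 1.23) as often as independent detection gives in VEH. In LEM the value was 1.11 (1.04 to 1.19). Ddit4 and Fkbp5 were at 1.08 (1.003 to 1.17) and 1.12 (1.05 to 1.19), and Tsc22d3 and Fkbp5 at 1.02 (0.96 to 1.08) and 1.05 (1.001 to 1.11). Within classes of the sex call (female, male, both, none), and without intervals, the pairs in that order were at 1.11 and 1.07, 1.06 and 1.08, and 1.01 and 1.03. The class none held 1464 of 7304 VEH and 1713 of 10602 LEM homeostatic cells and can mix the sexes. Pairs with Nr3c1 or Sgk1 lay between 0.974 and 1.05 in either library. Sgk1 had a count in 80.5% of VEH and 81.9% of LEM homeostatic cells, which limits how far above 1 its pairs can lie.

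Over 16 pools of at least 100 cells (state by library by sex), Ddit4 and Fkbp5 were most alike among the members, with a Pearson r of 0.94 between their log2(CPM + 1) values. These pools share libraries and depth, so r is a description. Of 9355 genes in at least 5% of cells, the one most like Ddit4 was Fkbp5, and the 3 most like Sgk1 were Ier5 (0.96), Dnajb4 (0.96) and Jun (0.96), immediate early and stress genes. Those most like Tsc22d3 were Lysmd4 (0.94), Zfp36l2 (0.93) and Jun (0.92), and those most like Nr3c1 were Tgfbi (0.98), Acvr1 (0.97) and Vti1a (0.96). Fkbp5 had Taf1b (0.95) and Anks6 (0.91) beside Ddit4, Ddit4 had Ndufaf7 (0.87) and Papss1 (0.87), and Klf9 had Tram1 (0.88), Zfp580 (0.82) and 4930517O19Rik (0.80).

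Genes on a list of receptor partners, which also holds the endoplasmic reticulum chaperone Hsp90b1, had small ratios between the libraries over all cells. Some chaperones had larger ratios of opposite sign in female and male cells. Of 23 genes for chaperones, coregulators, importers and hormone metabolism, 20 were detected, with a LEM over VEH median of -0.08. Of these 20, 16 were lower in LEM, as were 5229 of the 11904 detected genes. Lower by over 0.1 were 5 of 20, against 14.2% of detected genes, and higher by as much 0 of 20, against 21%. The most abundant were Hspa8, a chaperone of receptor assembly, at 1058 CPM in VEH and 946 CPM in LEM (-0.16), the endoplasmic reticulum chaperone Hsp90b1 at 834 and 885 CPM (0.09), the cytosolic Hsp90 gene Hsp90ab1 at 676 and 669 CPM (-0.02), Hsp90aa1 at 172 and 160 CPM (-0.10) and the corepressor Ncor1 at 143 and 140 CPM (-0.03). By sex, the ratio of Hspa8 was 0.16 in female and -0.31 in male cells, that of Hsp90ab1 0.33 and -0.23, that of Hsp90b1 0.27 and -0.04, and that of Hsp90aa1 0.06 and -0.19. Nr3c2, the mineralocorticoid receptor that binds the same hormone, was detected at 54.1 and 49.9 CPM (-0.11) and was lower in DAM by -0.78 in VEH and -0.81 in LEM.

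Genes induced by glucocorticoids differed in both directions. Of 45, 33 were detected, with a LEM over VEH median of 0.02. Of the 33, 13 were higher by over 0.1, against 21% of detected genes, and 7 lower, against 14.2%. Without the members the median was 0.05, with 12 of 28 higher and 4 lower. The median of the 33 was below 0 in female cells, at -0.06, and with a detection minimum of 10% of cells, at -0.05. Past 0.5 were the metallothionein gene Mt2 at 1.15 CPM in VEH and 2.13 CPM in LEM (0.89), the acyl-CoA thioesterase gene Acot1 at 1.69 and 2.48 CPM (0.55), and Errfi1, an inhibitor of EGF receptor signalling, at 91.4 and 63.5 CPM (-0.53). Mt2 had 134 counts in the 18374 VEH cells and 343 in LEM, so it met the detection minimum of 1% of cells through LEM only, where it was higher. Its ratio is therefore no support for a rise of the list. Acot1, with 197 counts in VEH and 399 in LEM, may have met that minimum through LEM only, and its ratio is no support either. Both genes are held in the medians at the 1% minimum and in the counts of genes higher by over 0.1 given above. Mt2 was higher mainly in male cells, at 1.14 against 0.32 in female cells, while Errfi1 was lower in both, at -0.72 in female and -0.39 in male cells.

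The shifts of Zfp36, Rhob, Glul and Mertk, the most abundant induced genes, were small, and that of the less abundant Dusp1 was larger. Zfp36, which degrades cytokine mRNA, was at 2918 CPM in VEH and 2762 CPM in LEM (-0.08), Rhob at 2771 and 2590 CPM (-0.10), the glutamine synthetase gene Glul at 1537 and 1581 CPM (0.04) and the phagocytic receptor gene Mertk at 932 and 900 CPM (-0.05). Dusp1, a phosphatase of MAP kinases that is induced by glucocorticoids and by dissociation alike, was at 733 and 572 CPM (-0.36).

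Of 20 glucocorticoid-repressed genes 12 were detected, with a LEM over VEH median of 0.12. Higher by over 0.1 were 7 of the 12, against 21% of detected genes, and lower 1, against 14.2%. In female cells 6 were higher and 0 lower by as much, against 26.1% and 25.4% of detected genes. In male cells 6 were higher and 5 lower, against 27.1% and 15.6%, so the count was not one-sided there. Past 0.5 over all cells were the chemokine gene Ccl5 at 1.80 CPM in VEH and 10.5 CPM in LEM (2.54) and the adhesion gene Vcam1 at 4.67 and 8.82 CPM (0.92). Ccl5 had 209 counts in the 18374 VEH cells and 1680 in LEM. It may have met the detection minimum of 1% of cells through LEM only, where it was higher. Its ratio and its place among the genes higher by over 0.1 are therefore no support for a rise of the list. Ccl5 was higher in LEM by 3.67 in female and 1.22 in male cells, and Vcam1 by 0.04 and 1.48. The most abundant, the chemokine genes Ccl4 and Ccl3 and the cytokine gene Il1a, were at -0.14, -0.06 and 0.10, the adhesion gene Icam1 at -0.01 and the chemokine gene Cxcl16 at 0.38. With a stricter detection minimum of 10% of cells the median of the list was -0.03.

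**Figure D5:**
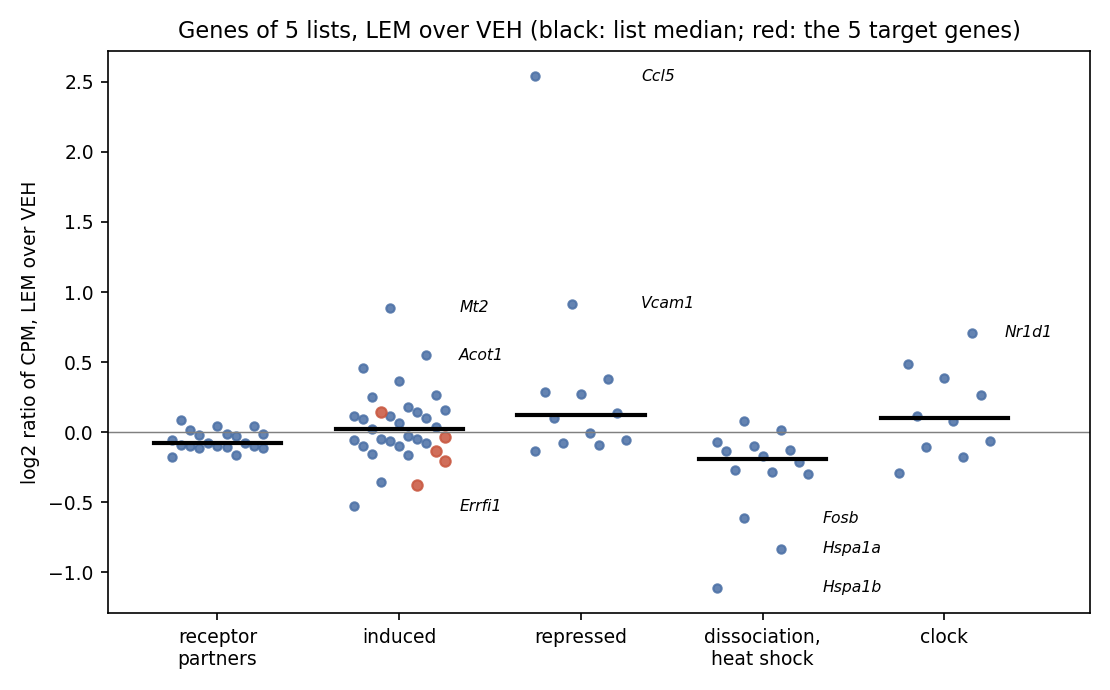
Log2 ratio of LEM over VEH (y axis) of each detected gene in 5 lists (x axis), with the list median as a black bar, the 5 target genes in red and genes past 0.5 named. The induced genes scatter around 0 (median 0.02), the dissociation and heat shock genes lie lower (median -0.19), and Ccl5 stands apart at 2.54.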

How the data were processed

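Sorted microglia of 5 pooled mice per treatment were measured as 1 VEH and 1 LEM library. The authors made 5′ libraries, aligned and counted reads with Cell Ranger 8.0.0 on mm10, named SoupX for free RNA, and kept cells with enough genes and a low mitochondrial share. The deposited values are whole-number counts of molecules per gene and cell, with no normalization and no annotation of cells. It could not be told whether they include the SoupX correction, and no further correction was made. All 42766 columns matched a library. Their names are numbered and hold no barcodes, so barcodes shared between libraries could not be counted.

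From the counts, CPM of summed counts and log2 ratios were computed with Python 3.11.15, numpy 2.4.6 and scipy 1.17.1, with exact Poisson intervals for levels and Clopper-Pearson intervals for ratios and shares, at a confidence level of 95%. No ratio was given where both groups held at most 3 counts. Genes found in 1% or more of the cells of a library were called detected, and log2 steps of 0.1 and 0.5 were used for counts of genes. Each cell went to the first gate it passed, in the order choroid plexus (at least 100 counts of Ttr), BAM (3 of 7 markers), proliferating (3 of 6), interferon (3 of 6), DAM (3 of 5), immediate early (4 of 6) and homeostatic (2 of 3). Some marker genes are not analysed here. No doublet caller was run. Droplets with counts of both sexes were counted and left out in an alternative. Thinning to 2000 counts left out 7.10% of VEH and 4.98% of LEM cells as shallower.

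The genes named were the 6 members, list genes past 0.5 or with the most counts in their list (up to 5), and the 3 genes most like each member. Others named beside a result (Per1, Dbp, Dusp1, Nr3c2 and the dissociation genes) were chosen after their values were seen. The members and lists were chosen with earlier results of these data known. Ratio intervals were tested on simulated Poisson counts with known ratios, which hold no spread between mice, and the outcome is not reported here. One further microglial marker is not reported here. Alternatives covered scaling, sex, depth, droplets and gates. Promoter windows are from RefSeq on GRCm38.p6.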

Additional observations from a re-analysis of the deposited data

Results flagged for a closer look

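For 2 of the 6 genes the LEM over VEH difference had opposite signs in female and male cells. Of 11903 detected genes, 6019 were higher and 5884 lower in LEM in female cells, and 6988 higher and 4915 lower in male cells. The share of all genes with opposite signs was not counted, so the 2 genes are not set apart from the others by this. For Klf9 the log2 ratios were -0.14 (female) and 0.41 (male), so that the male value was higher by 0.55. For Fkbp5 they were -0.11 (female) and 0.03 (male), a gap of 0.14, and the interval of the male value held 0. Neither difference was tested, since each sex in each library is 1 pool of an unknown number of mice.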

How the results depend on the processing

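No paired analysis was possible because each treatment is 1 library and no sample numbers are shared. Of 66 recomputed LEM over VEH ratios of the members, 49 kept their sign and stayed within the counting interval of the value given first. In female cells alone the ratios were -0.18 for Nr3c1, -0.24 for Tsc22d3, -0.033 for Ddit4, -0.11 for Fkbp5, -0.11 for Sgk1 and, with the sign turned, -0.14 for Klf9. In male cells alone they were -0.11 for Nr3c1, -0.16 for Ddit4, 0.029 for Fkbp5 (sign turned), -0.14 for Sgk1 and 0.41 for Klf9. With both sexes weighted equally Tsc22d3 was at -0.32 and Ddit4 at -0.12, in the homeostatic gate alone Tsc22d3 was at -0.34, Sgk1 at -0.076 and Klf9, with the sign turned, at -0.0058, and scaling by the median of ratios put Sgk1 at -0.15. Among genes in at least 10% of cells the median turned to -0.033 for the glucocorticoid-repressed list and to -0.052 for the induced list, which was at -0.055 in female cells. The Sgk1 share of cells, LEM minus VEH, turned to -2.02 percentage points in thinned cells.

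Of 324 recomputed state ratios 33 changed sign, 10 of them for Klf9, 7 for Nr3c1, 6 for Fkbp5, 5 each for Sgk1 and Tsc22d3 and 0 for Ddit4. In 10 of the 33 the ratio given first was over 0.1 in size, and their values follow. For Klf9 in LEM DAM cells the values were -0.44 with 1 marker more, -0.90 with gates on thinned cells, -0.021 over the homeostatic and immediate early gates together and -0.32 over cells of the same depth. Klf9 in the interferon gate turned from -0.70 to 0.28 in VEH and from -0.53 to 0.33 in LEM with 1 marker fewer. In VEH proliferating cells Klf9 turned from -0.59 to 0.41 as a mean over cells. Tsc22d3 in the VEH interferon gate turned from 0.25 to -0.019 with 1 marker more and to -0.038 over both gates together. Fkbp5 in VEH proliferating cells turned from -0.14 to 0.032 with gates on thinned cells. The comparisons over both gates and at equal depth were chosen after seeing the data, and the causes were not tested. The DAM ratio was taken over both libraries and over all settings of gates, droplets, reference, depth and the mean over cells. It ranged from -2.06 to -0.999 for Ddit4, from -1.82 to -0.47 for Tsc22d3 and from -0.93 to -0.49 for Nr3c1. For Fkbp5 it ranged from -0.90 to -0.54 and for Sgk1 from -0.80 to -0.15. Depth limits Klf9 most, with 382 and 585 counts.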
